A study of Mus musculus with 32 samples.

Results

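The genes described here encode splicing factors and heterogeneous nuclear ribonucleoproteins (hnRNPs), and the data are the binding sites of the RNA-binding protein IGF2BP3 on their transcripts in mouse cells that carry the MLL-Af4 fusion. The genes were chosen by name alone: a symbol that begins with Srsf and a digit, Hnrnp, Sf3a or Sf3b and a digit, Snrp, U2af, or Prpf and a digit, in both deposited gene tables, with pseudogene names that hold "-ps" left out. This gave 66 of the 23620 genes that both tables list, namely 20 Hnrnp, 13 Prpf, 12 Snrp, 10 Srsf, 9 Sf3 and 2 U2af genes. Srsf12 fitted the rule in the Lin- table alone and U2af1l4 in the CD11b+ table alone, and neither was included.

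Binding was measured by eCLIP, in which protein and RNA are crosslinked by UV light, the protein is pulled down with an antibody and the RNA pieces that come with it are sequenced. Lin- cells were bone marrow cells depleted of lineage-positive cells, infected with a retrovirus for MLL-Af4 and selected with G418. CD11b+ cells were selected from splenic tumors of MLL-Af4 mice, so that tumor cells and any CD11b+ cells of the host were both taken. The library names in the CD11b+ peak files begin with bm, as those of Lin- cells do, while the labels give splenic tumors, and the labels are followed here. The eCLIP libraries came from cells with an intact Igf2bp3 gene, and no eCLIP library of deletion cells was analysed. Of the 6 Lin- eCLIP libraries, 3 are labelled biological (1 to 3) and 3 technical (4 to 6), and of the 4 CD11b+ libraries, 2 are labelled biological (1 and 2) and 2 technical (3 and 4). Each eCLIP library has a size-matched input (smInput), which was made from the same lysate fraction without enrichment. RNA-seq was made from 3 wild type and 3 Igf2bp3-deleted (I3KO) libraries per cell type, both with MLL-Af4, and the deletion is a germline allele. From RNA-seq, only the authors' mean normalized count over the 6 libraries of a cell type was used, so that no value here compares I3KO with wild type.

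SR proteins, encoded by the Srsf genes, bind exons and promote their use, while many hnRNPs bind introns or exons and counter that use. The Sf3a and Sf3b proteins belong to the U2 snRNP that contacts the branch point, U2AF recognizes the pyrimidine tract and the AG of the 3′ splice site, the Snrp proteins form the core and the specific parts of the snRNPs, and the Prpf proteins assemble and drive the spliceosome. Many SR and hnRNP genes control their own level through exons or introns whose inclusion sends the transcript to nonsense-mediated decay (NMD). IGF2BP3 is an oncofetal RNA-binding protein that is best known for binding mature mRNA, often at CA-rich sequence.

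Kit, Cd34 and Flt3, markers of stem and progenitor cells, had authors' means of 6974, 9052 and 9396 normalized counts in Lin- cells and 673, 1291 and 390 in CD11b+ cells. The myeloid genes Lyz2 and Csf1r had means of 20990 and 7910 in Lin- cells and 72146 and 15008 in CD11b+ cells. Mpo, the most abundant of the myeloid genes listed, ran the other way, with 101212 and 84102. Itgam, which encodes CD11b itself, was not listed in the Lin- table and had a mean of 17.0 in the CD11b+ table. The tables were normalized separately, so these levels are set side by side and were not tested. Hbb-bs, a hemoglobin gene of red cells, had 52.2 in Lin- and 1083 in CD11b+ cells. The means of the 4 B cell markers ran from 1.10 to 101 in the Lin- table and from 25.4 to 146 in the CD11b+ table, and the listed T cell markers reached at most 14.8. Igf2bp3 had a mean of 2041 in Lin- and 1355 in CD11b+ cells, over wild type and I3KO libraries together.

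The filtered eCLIP libraries held 4040 to 10054 peaks, of which 66 to 185 lay on the 66 genes. A peak is a stretch where CLIPper found more reads than its local background, and the filtered set is what the authors kept after removing peaks that overlap smInput peaks. In total 1194 filtered peaks lay on the 66 genes, 841 in Lin- and 353 in CD11b+ libraries, and overlapping peaks of a gene merged into 390 regions. Lin- libraries 2 and 5 stood apart from the other Lin- libraries in where their peaks lay, and the value without library 2 is given where it moves a difference by over 1.5 times.

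The regions found in the most libraries are shown first. In these sequences, read 5′ to 3′ in GRCm38 (mm10), capitals mark the exon bases that follow an annotated 3′ splice site inside the region, and lower case marks the bases before it. Sequences with no capitals hold no such site. The first 8 are the regions found in the most libraries among the genes with the most regular binding.
Srsf6, chr2:162932180-162932331, plus strand: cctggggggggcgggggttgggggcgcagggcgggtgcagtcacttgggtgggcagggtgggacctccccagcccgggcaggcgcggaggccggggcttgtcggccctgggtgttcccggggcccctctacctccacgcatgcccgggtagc
Hnrnph1, chr11:50379766-50379840, plus strand: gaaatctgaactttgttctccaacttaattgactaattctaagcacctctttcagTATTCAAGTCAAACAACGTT
Hnrnpl, chr7:28818414-28818475, plus strand: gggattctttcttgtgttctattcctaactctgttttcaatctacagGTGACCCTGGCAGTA
Hnrnpa2b1, chr6:51462062-51462139, minus strand: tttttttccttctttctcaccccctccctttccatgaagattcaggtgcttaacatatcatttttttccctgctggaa
Srsf6, chr2:162933377-162933438, plus strand: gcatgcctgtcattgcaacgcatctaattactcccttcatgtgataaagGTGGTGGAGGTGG
Hnrnph1, chr11:50385727-50385793, plus strand: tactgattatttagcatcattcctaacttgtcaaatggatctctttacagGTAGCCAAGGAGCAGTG
Hnrnpa2b1, chr6:51466203-51466286, minus strand: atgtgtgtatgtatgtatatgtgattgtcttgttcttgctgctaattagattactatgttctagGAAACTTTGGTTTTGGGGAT
Hnrnpdl, chr5:100036174-100036245, minus strand: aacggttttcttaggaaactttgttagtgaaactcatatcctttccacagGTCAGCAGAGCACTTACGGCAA
The first 6 had a peak in each of the 10 eCLIP libraries and the last 2 in 9. In 6 of the 8, the region runs across a 3′ splice site: it begins in the intron, passes the AG and ends 13 to 22 bases into a coding exon.

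The 5 other regions that hold a 3′ splice site and had a peak in at least 9 libraries are shown next, chosen after their values were seen.
Srsf5, chr12:80949033-80949115, plus strand: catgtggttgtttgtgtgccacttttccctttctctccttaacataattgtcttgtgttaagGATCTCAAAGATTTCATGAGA
Srsf3, chr17:29039400-29039478, plus strand: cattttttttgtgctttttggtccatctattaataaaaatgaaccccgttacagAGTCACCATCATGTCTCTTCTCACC
Srsf7, chr17:80205064-80205129, minus strand: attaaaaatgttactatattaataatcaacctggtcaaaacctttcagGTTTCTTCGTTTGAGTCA
Hnrnpu, chr1:178330331-178330395, minus strand: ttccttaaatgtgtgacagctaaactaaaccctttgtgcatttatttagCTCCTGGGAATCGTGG
Srsf2, chr11:116850939-116851012, minus strand: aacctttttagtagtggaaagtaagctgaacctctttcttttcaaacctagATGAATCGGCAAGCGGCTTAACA
The capitals of Srsf5 and Hnrnpu are coding exon and those of Srsf2 lie in a 3′UTR. Those of Srsf3 and Srsf7 belong to exons that GENCODE places only in NMD or retained-intron transcripts. None of these 13 sequences holds ACACAC or CACACA.

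At least 1 filtered peak in any Lin- library was found on 56 of the 66 genes (84.8%), and in any CD11b+ library on 45 (68.2%). Over all genes of the tables, the share was 26.5% in Lin- and 25.6% in CD11b+ cells. The 66 genes are among the more abundant transcripts, with a median mean count of 4424 in Lin- and 2026 in CD11b+ cells against 54.7 and 47.3 over all listed genes. Where the authors' mean reached 1000 normalized counts, 54 of 60 members (90.0%) had a peak in Lin- cells against 76.5% of all such genes, and 39 of 48 (81.2%) in CD11b+ cells against 68.4%. A peak in every biological library was rarer among all such genes, at 25.1% in Lin- and 37.9% in CD11b+ cells. It was found on 38 of the 60 members (63.3%) and on 30 of the 48 (62.5%). Without the limit on the mean, 39 of 66 members had a peak in every biological Lin- library, against 6.89% of all genes, and 33 of 66 in every biological CD11b+ library, against 10.2%. Both cell types shared 44 of the bound members, which is 44 of 56 in Lin- and 44 of 45 in CD11b+ cells. The same overlap was not counted over all genes or over genes of like abundance, so no comparison is drawn. Snrpd2 had its only peak in CD11b+ cells, in technical library 3.

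**Figure D1:**
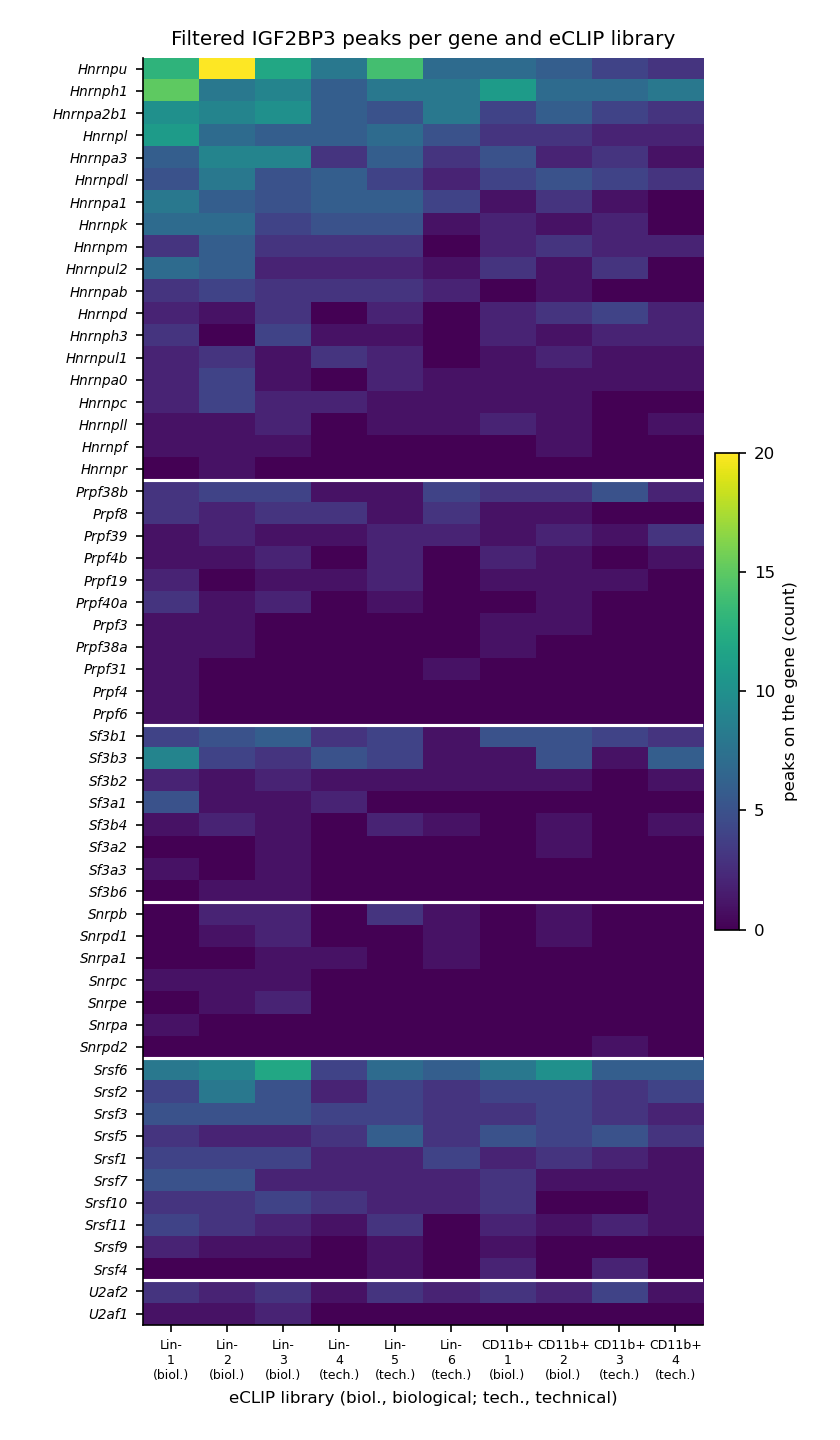
Filtered IGF2BP3 peaks (color scale, count) on each of the 57 genes with a peak (rows, grouped by family and ordered by total) in each of the 10 eCLIP libraries (columns). Hnrnpu, Hnrnph1, Hnrnpa2b1 and Srsf6 had peaks in every library, while most Snrp and Prpf rows are dark.

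Transcripts of hnRNP genes carried the most peaks. Of the 20 Hnrnp genes, 19 had a peak in Lin- and 18 in CD11b+ cells, and 17 and 16 had a peak in every biological library. Together they held 464 of the 841 Lin- and 168 of the 353 CD11b+ peaks. Hnrnpu encodes a nuclear matrix RNA-binding protein and had the highest authors' mean of the 66 genes in both tables, 30283 and 11217. It had 13, 20 and 12 peaks in the biological and 8, 14 and 7 in the technical Lin- libraries. In CD11b+ cells it had 7 and 6 peaks in the biological and 4 and 3 in the technical libraries. The Lin- and CD11b+ biological libraries did not overlap for this gene.

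Hnrnph1, whose product binds G-rich runs, had 15, 8 and 9 peaks in the biological Lin- libraries and 11 and 7 in the biological CD11b+ libraries. The groups overlapped. Of its 87 peaks in all libraries, 54 were centred in exons of transcripts annotated neither as coding nor as NMD or retained intron, and 31 in introns. Its region at chr11:50379766-50379840 alone took 125, 47 and 75 reads in the biological Lin- libraries and 19 and 33 in the biological CD11b+ libraries.

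Hnrnpa2b1, whose product binds RNA in the nucleus and in transport granules, had 10, 9 and 10 peaks in the biological Lin- and 4 and 6 in the biological CD11b+ libraries. Hnrnpl, which encodes a binder of CA repeats, had 11, 7 and 6 against 3 and 3 peaks. For both genes each Lin- biological library was above each CD11b+ biological library. Hnrnpdl, a relative of Hnrnpd that is known to be spliced in an alternative 3′ exon, had 5, 8 and 5 against 4 and 5 peaks, which overlap. Hnrnpa3 had 6, 9 and 9 against 5 and 2 peaks.

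Hnrnpa1, which encodes an abundant splicing repressor, had 8, 6 and 5 against 1 and 3 peaks, and 39 of its 40 peaks in all libraries were in introns. Hnrnpk, which encodes a binder of C-rich RNA, had 7, 7 and 4 against 2 and 1 peaks. Hnrnpul2 had 7, 6 and 2 against 3 and 1 peaks, and since an annotated gene overlaps it on the same strand, its peaks cannot be assigned to it alone. Hnrnpm, which encodes a binder of GU-rich RNA, had 3, 6 and 3 against 2 and 3 peaks. Hnrnpa0, whose only annotated transcript is a single exon, had 11 of its 14 peaks in coding sequence. Hnrnph2 had none in any library, at means of 2384 and 1510. Hnrnpr had 1 peak, in Lin- library 2, and none in CD11b+ cells.

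All 10 Srsf genes had a peak in each cell type, and 9 had a peak in every biological Lin- library and 7 in every biological CD11b+ library. Srsf6 had 8, 9 and 12 peaks in the biological Lin- and 8 and 10 in the biological CD11b+ libraries. It was the most often bound SR gene in both cell types, and the groups overlapped. Of its 76 peaks in all libraries, 73 were centred in exons found only in NMD or retained-intron transcripts. The G-rich Srsf6 region at chr2:162932180-162932331, with 46.7% G, took 100, 190 and 393 reads in the biological Lin- and 245 and 182 in the biological CD11b+ libraries.

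Srsf5 was the only one of the 66 genes with more peaks in each CD11b+ than in each Lin- biological library, with 5 and 4 against 3, 2 and 2. Its technical Lin- libraries had 3, 6 and 3 and its technical CD11b+ libraries 5 and 3 peaks, which overlap. The Srsf5 region at chr12:80949033-80949115 took 30, 0 and 214 reads in the biological Lin- and 92 and 47 in the biological CD11b+ libraries. Srsf2, often mutated in myeloid neoplasms in human, had 4, 8 and 5 against 4 and 4 peaks. Srsf3, which encodes the smallest SR protein, had 5, 5 and 5 against 3 and 4 peaks, and Srsf1, a founding SR gene, had 4, 4 and 4 against 2 and 3. For Srsf3 and Srsf1 the biological libraries did not overlap. The technical ones met, at 4, 4 and 3 against 3 and 2 for Srsf3. For Srsf1 they were 2, 2 and 4 against 2 and 1. Srsf7 had 5, 5 and 2 against 3 and 1 peaks. Srsf1 stood apart from the other Srsf genes in location, with 15 of its 28 peaks in the 3′UTR. Srsf4 had 1 peak in Lin- cells, in technical library 5, and 4 in CD11b+ cells.

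Both subunits of the U2AF heterodimer were bound in Lin- cells. U2af2, the subunit that binds the pyrimidine tract, had 3, 2 and 3 peaks in the biological Lin- and 3 and 2 in the biological CD11b+ libraries, and it had a peak in every library. U2af1, the subunit that reads the AG, had 1, 1 and 2 peaks in the biological Lin- libraries and none in any technical Lin- or any CD11b+ library. Of their 28 peaks in all libraries, 26 were centred in introns or in exons of NMD or retained-intron transcripts.

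Among the 9 Sf3 genes, 8 were bound in Lin- and 5 in CD11b+ cells. Sf3b1, which encodes the largest part of the U2 branch point complex, had 4, 5 and 6 against 5 and 5 peaks and had a peak in every library. Of its 40 peaks in all libraries, 23 were in exons of NMD or retained-intron transcripts and 16 in introns. Sf3b3 had 9, 4 and 3 against 1 and 5 peaks, and its 4575 reads in Lin- and 1443 in CD11b+ peaks lay almost wholly on the small RNA genes described below. Sf3a1 had 5, 1 and 1 peaks in the biological Lin- libraries and none in any CD11b+ library, at a mean of 2005 there. Sf3b5 had none in either cell type.

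Of the 13 Prpf genes, 11 had a peak in Lin- and 8 in CD11b+ cells, and 5 and 6 had one in every biological library. Prpf38b had 3, 4 and 4 against 3 and 3 peaks and Prpf39 1, 2 and 1 against 1 and 2, and both had a peak in every library. Prpf8, which encodes the large protein at the heart of the spliceosome, had 3, 2 and 3 against 1 and 1 peaks. Prpf18, a factor of the second splicing step, had none, at means of 1537 and 889. Of the 12 Snrp genes, 6 had a peak in Lin- and 3 in CD11b+ cells. Snrpc, part of the U1 snRNP, was the only one with a peak in every biological Lin- library, with 1, 1 and 1, and it had none in CD11b+ cells. Snrpb, a core Sm protein gene that is known for a regulated NMD exon, had 0, 2 and 2 peaks in the biological Lin- libraries and 0 and 1 in the CD11b+ ones. All 9 of its peaks over the 10 libraries lay in exons of NMD or retained-intron transcripts. Most of its reads, 587, were in 1 region that holds no splice site. No Snrpb region touched an internal exon of the non-coding kind counted below, and whether its peaks lie on the known NMD exon was not tested. Snrpd3 had no peak at means of 1816 and 869, and Snrpn was nearly silent in both tables, at 0.835 and 0.342.

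The number of peaks followed the transcript level across the 66 genes. Spearman's rho between the authors' mean and the peaks summed over libraries was 0.83 in Lin- and 0.69 in CD11b+ cells, across genes, which are not independent replicates. Gene length had a rho of -0.13 and -0.09 with the peaks. The level did not order all genes: Hnrnpab had a mean of 7846 in CD11b+ cells and 0 and 1 peaks in the biological libraries, while Hnrnph3 had a mean of 731 and 2 and 1 peaks. Per kilobase of exon, the authors' mean of these genes in CD11b+ cells was 2820 for Hnrnpab and 232 for Hnrnph3.

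**Figure D2:**
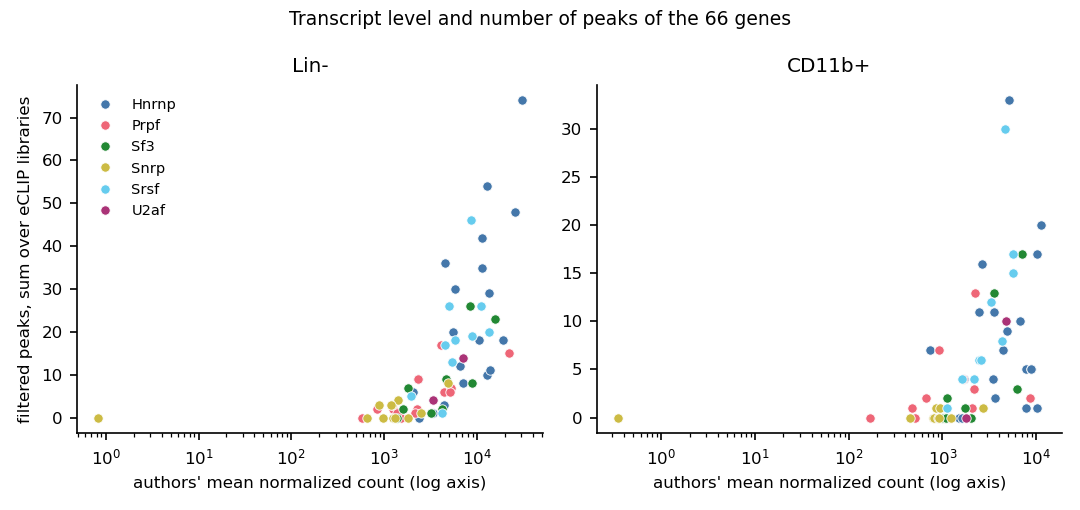
Authors' mean normalized count (log axis) against the filtered peaks of each of the 66 genes, summed over 6 Lin- (left) and 4 CD11b+ (right) libraries, colored by family. Peaks grew with the level, with a Spearman's rho of 0.83 and 0.69.

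Per 1000 filtered peaks, the 66 genes held 25.1, 17.8 and 18.5 peaks in the biological Lin- libraries and 12.2 and 10.1 in the biological CD11b+ libraries. The technical libraries had 24.8, 20.0 and 19.1 in Lin- and 10.7 and 9.32 in CD11b+ cells. Each Lin- library was above each CD11b+ library. The means of the biological libraries were 20.5 ± 4.03 (SD, n = 3) and 11.2 ± 1.46 (SD, n = 2), and the difference was 9.32 (exact permutation test, two-sided, p = 0.1, adjusted p = 0.178 over 16 tests). With 3 libraries against 2, no p below 0.1 is possible. The Wilson 95% intervals of single libraries reached from 15.4 to 29.0 in Lin- and from 8.36 to 14.8 in CD11b+ cells, for counting error only. The number of members with a peak was 48, 46 and 48 in the biological Lin- and 37 and 40 in the biological CD11b+ libraries, a difference of 8.83 (exact permutation test, p = 0.1, adjusted p = 0.178). With peaks of a CLIPper p below 0.001 alone, it was 2.17 (exact permutation test, p = 0.6). The median authors' mean of these genes was 4424 in the Lin- table and 2026 in the CD11b+ table, and the part of transcript level in these differences was not tested.

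**Figure D3:**
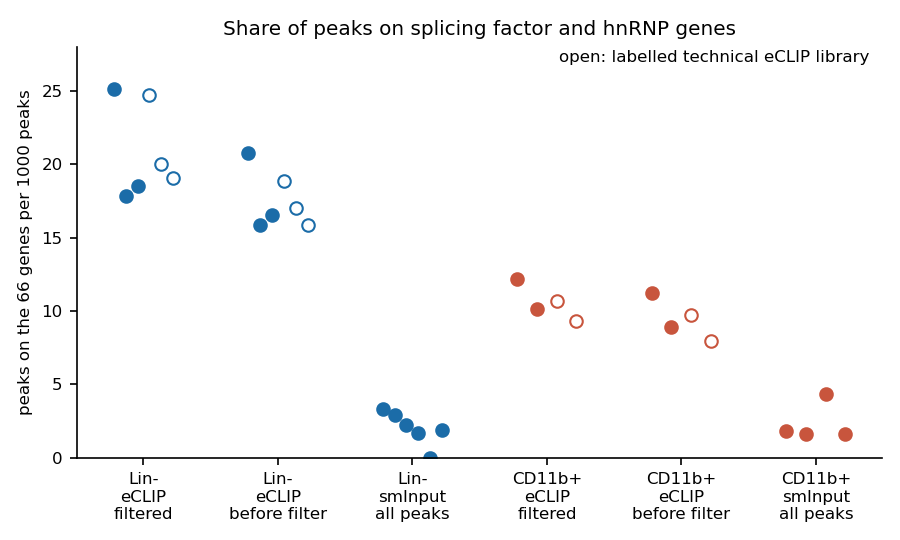
Peaks on the 66 genes per 1000 peaks of a library, for eCLIP after and before the smInput filter and for smInput (points, 1 library each; open points, technical eCLIP libraries). Filtered Lin- libraries lie between 17.8 and 25.1, filtered CD11b+ libraries between 9.32 and 12.2, and smInput libraries at 4.34 or less.

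The inputs held few peaks on these genes. Before the filter, the biological Lin- eCLIP libraries had 20.7, 15.9 and 16.5 peaks on the 66 genes per 1000 peaks, and their inputs 3.32, 2.90 and 2.25. The difference was 14.9 (exact permutation test, p = 0.1, the smallest that 3 against 3 allow, adjusted p = 0.178). In CD11b+ cells the eCLIP libraries had 11.2 and 8.92 and their inputs 1.80 and 1.59, a difference of 8.36 (exact permutation test, p = 0.333, the smallest that 2 against 2 allow, adjusted p = 0.444). Input and eCLIP peaks were called with different settings, so the sizes of these differences also hold that difference in calling. The filter removed 21 of 862 peaks on the 66 genes in Lin- and 11 of 364 in CD11b+ libraries, or 2.44% and 3.02%, against 16.9% and 13.6% of all peaks. Input peaks recurred on Srsf10, in 4 Lin- and 4 CD11b+ inputs, and on Hnrnpab, in 3 and 4, where they were 3 to 7 nt long. Lin- input 5 had only 217 peaks and none on these genes, which allows up to 13.8 per 1000.

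Gene by gene, 14 of the 66 had more peaks in each biological Lin- than in each biological CD11b+ library, against 2.31% of all genes in both tables. Among genes with a mean of at least 1000 in both tables the count was 13 of 48 (27.1%), against 9.67%. These 14 were Hnrnpa1, Hnrnpa2b1, Hnrnpa3, Hnrnpab, Hnrnpc, Hnrnpk, Hnrnpl, Hnrnpu, Prpf8, Sf3a1, Snrpc, Srsf1, Srsf3 and U2af1. The reverse held for 1 gene, Srsf5, against 3.44% of all genes and 10.6% of those with a mean of at least 1000. Among the technical libraries the cell types overlapped or tied for Hnrnpa3, Hnrnpk, Sf3a1, Snrpc, Srsf1, Srsf3, U2af1 and Srsf5. Sf3a1, Snrpc and U2af1 had a peak in every biological Lin- library and in no CD11b+ library, and none of the 66 had the reverse. How many of all genes have either pattern was not counted, so no comparison is drawn. In the technical Lin- libraries Sf3a1 had 2, 0 and 0 peaks, and Snrpc and U2af1 had none. The Lin- peaks of Snrpc held 13 reads and those of U2af1 20.

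Most peaks on these transcripts were centred close to splice sites. The share within 100 nt of an annotated splice site was 87.6%, 72.1% and 83.2% in the biological Lin- libraries and 67.3% and 69.6% in the biological CD11b+ libraries. For peaks on all other genes of the same libraries it was 72.8%, 45.2%, 66.5%, 23.1% and 18.9%. The 66 genes were above the other genes in each of the 5 libraries, by a mean of 30.7 percentage points (exact sign-flip permutation test over 5 libraries, two-sided, p = 0.0625, the smallest possible, adjusted p = 0.178). Between the cell types, the share on the 66 genes differed by 12.5 points (exact permutation test, p = 0.2, adjusted p = 0.32), and by 19.1 within 50 nt. The difference from other genes was 44.2 and 50.8 points in CD11b+ cells, where peaks on other genes lay mostly away from splice sites, and 14.8, 26.9 and 16.7 points in Lin- cells. The bound members had a median gene length of 14148 nt in Lin- cells, against 24481 nt for the other bound genes. In bound members, 20.8% of the summed gene length in Lin- and 22.1% in CD11b+ cells lay within 100 nt of a splice site, against 6.37% and 5.41% in the other bound genes. The part of this gene structure in the difference was not tested.

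**Figure D4:**
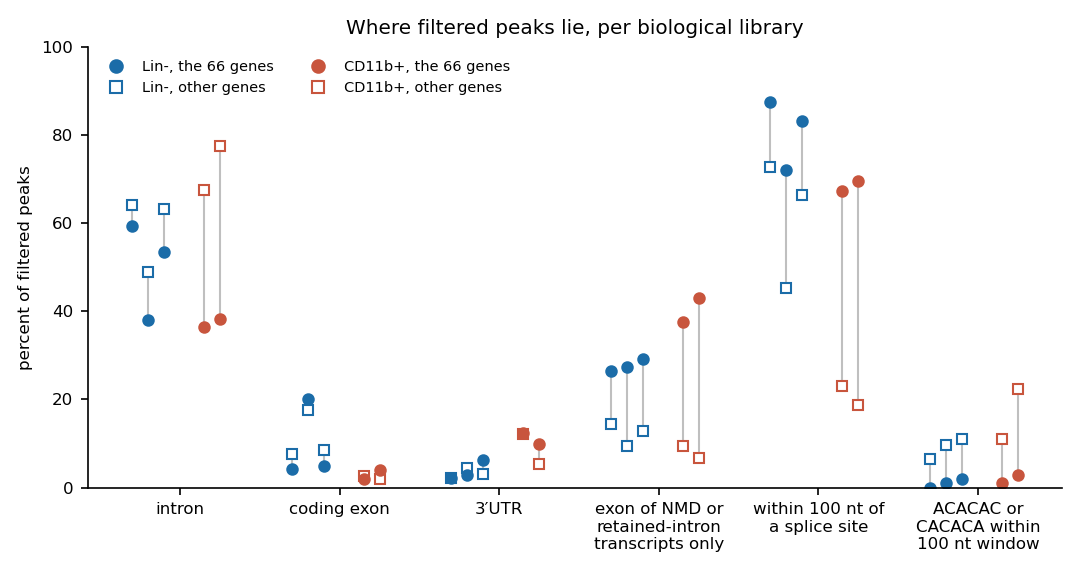
Percent of filtered peaks in 6 features for each biological library, for the 66 genes (filled circles) and for all other genes (open squares), joined within a library. Within 100 nt of a splice site the 66 genes lie between 67.3% and 87.6% and above the other genes in each of the 5 libraries.

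The peaks gathered just before the 3′ splice site. Of the 841 Lin- peaks on the 66 genes, 425 (50.5%) were centred within the last 40 nt of an intron, upstream of an annotated 3′ splice site, and of the 353 CD11b+ peaks 117 (33.1%). Library by library the share was 64.9%, 31.3% and 50.3% in the biological Lin- libraries and 35.6% and 33.3% in the biological CD11b+ libraries. Library 2 was lowest among the Lin- libraries, and technical library 5, at 36.9%, was lowest among the technical ones. Other genes had 34.6% over all Lin- and 8.75% over all CD11b+ peaks. Peaks that ran across a 3′ splice site made up 40.5% of the Lin- and 19.0% of the CD11b+ peaks on the 66 genes, against 28.3% and 4.88% on other genes. Peaks across a 5′ splice site made up 19.6% and 17.0%, against 10.2% and 3.48%. The 40 nt window was set after the distances were seen, and these shares were not tested.

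**Figure D5:**
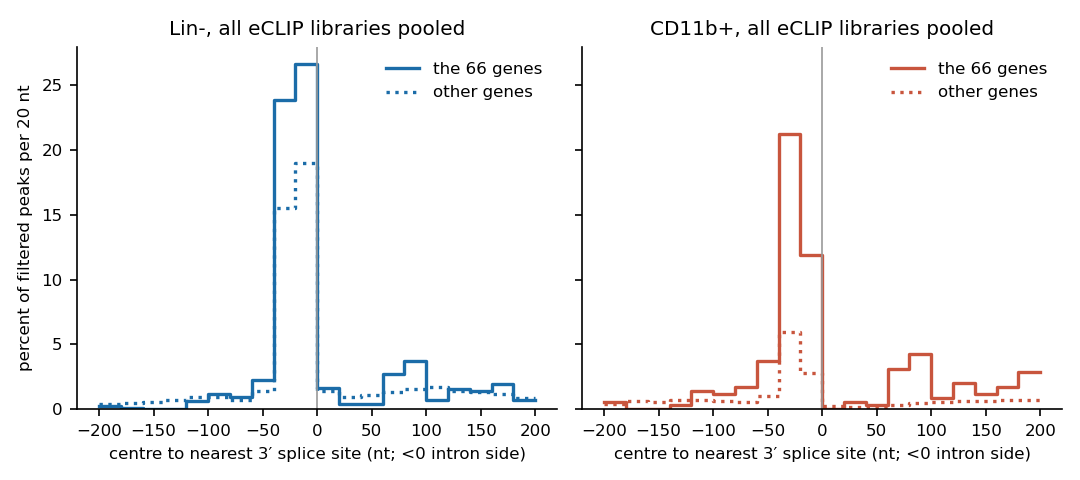
Distance from the centre of each filtered peak to the nearest annotated 3′ splice site of its gene (nt, negative on the intron side), in 20 nt bins, as percent of all peaks on the 66 genes (solid) or on other genes (dotted), with libraries of a cell type pooled. In Lin- cells 50.5% and in CD11b+ cells 33.1% of the peaks on the 66 genes lie in the 40 nt before the site.

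Much of the bound sequence was intronic for the coding transcript and exonic for NMD or retained-intron transcripts. The share of peaks on the 66 genes centred in exons that only such transcripts hold was 26.5%, 27.4% and 29.2% in the biological Lin- and 37.5% and 43.1% in the biological CD11b+ libraries. Other genes had 14.5%, 9.34%, 12.9%, 9.40% and 6.69%. The mean difference was 22.2 percentage points, and it was positive in each of the 5 libraries (exact sign-flip permutation test, p = 0.0625, adjusted p = 0.178). Such exons made up 9.70% of the summed length of bound members in Lin- cells and 2.002% of that of the other bound genes. With transcripts tagged basic, which leave out most such transcripts, the difference became -0.0425. The share was lower in Lin- than in CD11b+ cells at 27.7% ± 1.38 (SD, n = 3) and 40.3% ± 3.99 (SD, n = 2), and the groups did not overlap, with a difference of -12.6 points (exact permutation test, p = 0.1, adjusted p = 0.178).

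The share in introns outside all annotated exons was 59.5%, 38.0% and 53.4% in the biological Lin- and 36.5% and 38.2% in the biological CD11b+ libraries. Other genes had 64.2%, 48.8%, 63.2%, 67.5% and 77.6%. The mean difference was -19.2 percentage points (exact sign-flip permutation test, p = 0.0625, adjusted p = 0.178). It turned to 8.06 with basic transcripts and to 1.89 when every place outside the exons of coding transcripts counted as intron. Counted that way, 92.4%, 69.3% and 87.6% of the Lin- and 84.6% and 86.3% of the CD11b+ peaks on the 66 genes in biological libraries were intronic. Lin- and CD11b+ cells differed by 12.9 points in the share in introns (exact permutation test, p = 0.3, adjusted p = 0.436), and the groups overlapped. The difference was 8.32 without Lin- library 1 and 19.05 without Lin- library 2.

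Few peaks were centred in mature coding sequence, apart from Lin- libraries 2 and 5. The share centred in coding exons was 4.32%, 20.1% and 4.97% in the biological Lin- and 1.92% and 3.92% in the biological CD11b+ libraries. Library 2 was far above the others, and so was technical library 5, at 19.2%. Biological library 2 held 36 of the 52 coding peaks in the biological Lin- libraries. The 66 genes and the other genes differed by -0.587 points (exact sign-flip permutation test, p = 0.688, adjusted p = 0.688), and the cell types by 6.88 points (exact permutation test, p = 0.4, adjusted p = 0.457). Without library 2 the difference between cell types was 1.72, and when any overlap counted it was 28.04. Against other genes, the difference was -1.38 without Lin- library 2 and -1.25 without CD11b+ library 2. It turned to 12.3 when any overlap counted, so the low shares hold for peak centres and not for all bases of the peaks.

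In the 3′UTR the share was 2.16%, 2.79% and 6.21% in the biological Lin- and 12.5% and 9.80% in the biological CD11b+ libraries. The groups did not overlap, and the difference was -7.43 points (exact permutation test, p = 0.1, adjusted p = 0.178). Other genes also had more 3′UTR peaks in CD11b+ cells, at 2.23%, 4.48% and 3.19% against 12.2% and 5.27%, and the 66 genes differed from them by 1.22 points (exact sign-flip permutation test, p = 0.375, adjusted p = 0.457). This difference was 1.95 without Lin- library 2, 0.771 without Lin- library 3, 0.395 without CD11b+ library 2 and 3.69 when any overlap counted. Of the 68 peaks in 3′UTRs over all libraries, 15 were on Srsf1, 10 on Srsf2, 8 on Hnrnpa2b1 and 7 each on Hnrnpul2 and Prpf4b.

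Some peaks lay on exons that only non-coding transcripts use. GENCODE gives 20 of the 66 genes an internal exon of a non-coding transcript type that lies within an intron of a coding transcript, and 10 regions on 5 genes touched such an exon. The 2 found in the most libraries were on SR genes, and their sequences are printed above. In Srsf3, the region crosses the 3′ splice site of a 456 nt NMD exon at chr17:29039454-29039909. It took 53, 13 and 18 reads in the biological Lin- and 4 and 14 in the biological CD11b+ libraries. In Srsf7, the region crosses the 3′ splice site of a 460 nt NMD exon at chr17:80204622-80205081 and took 36, 7 and 25 against 6 and 0 reads. In Srsf10, a region found in 8 libraries crosses the start of a 360 nt exon of a processed transcript at chr4:135858842-135859201. It took 16, 10 and 3 against 8 and 0 reads. The other 7 regions, on Sf3b1, Srsf3, Srsf7 and Prpf38b, were each found in 1 library.

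The CA hexamers were rare in these peaks. ACACAC or CACACA stood within the 100 nt window on the centre of 16 of the 1194 peaks, read on the transcript strand, and the hexamers can overlap each other. The share was 0%, 1.12% and 1.86% in the biological Lin- and 0.962% and 2.94% in the biological CD11b+ libraries. The 0 of 185 peaks in Lin- library 1 allows up to 1.62%. Peaks on other genes held a hexamer in 6.55%, 9.64%, 11.04%, 11.05% and 22.4%. The 66 genes were below the other genes in each of the 5 libraries, and the mean difference was -10.8 points (exact sign-flip permutation test, p = 0.0625, adjusted p = 0.178). The cell types differed by -0.958 points (exact permutation test, p = 0.5, adjusted p = 0.533), and by -0.461 without Lin- library 1, -1.95 without CD11b+ library 1 and 0.032 without CD11b+ library 2. Snrpb had 5 of the 16 peaks with a hexamer, U2af2 3 and Hnrnpm 2.

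Reads pooled over libraries were highest on the snoRNA genes inside Sf3b3, although in Lin- libraries 3 and 6 and CD11b+ libraries 1 and 3 the first Srsf6 region had more. Sf3b3 hosts Snord111, a box C/D snoRNA, and its region there was found in all 10 libraries with 1893 reads. It took 278, 667 and 58 reads in the biological Lin- and 40 and 212 in the biological CD11b+ libraries. All of its bases lie in the snoRNA, so that the sequence is shown in capitals.
Sf3b3, chr8:110838530-110838612, minus strand: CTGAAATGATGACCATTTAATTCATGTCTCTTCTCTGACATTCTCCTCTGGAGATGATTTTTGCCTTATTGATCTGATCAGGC
A second snoRNA of Sf3b3, Gm22193, took 4116 reads in 6 libraries, and the snoRNA Gm25970 in Prpf39 took 294 in 7. The snoRNA Gm22027 in Sf3b4 took 133 reads in 4 libraries, and the miRNA gene Gm24574, which overlaps the start of Hnrnpa3, took 41 in 4. Together 38 of the 841 Lin- and 18 of the 353 CD11b+ peaks overlapped a small RNA gene, and they held 33.6% and 25.7% of the reads in peaks on the 66 genes. Whether these reads come from the host transcript or from the free small RNA cannot be told apart. A region of Snrpb at chr2:130172908-130172979 took 587 reads in 5 libraries and overlaps no annotated small RNA gene. Input peaks were also found on Gm22027 in Sf3b4, in 4 Lin- inputs and 1 CD11b+ input, on Gm22193 in Sf3b3, in 1 and 1, and on Snrpb, in 1 and 2.

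Binding on other splicing regulators was counted in the same way. Of a list of 64 such genes outside the name rule, 63 were in the tables, and 60 (95.2%) had a peak in any Lin- and 50 (79.4%) in any CD11b+ library. Over all genes with a mean of 1000 or more, the shares were 76.5% and 68.4%, and over all listed genes 26.5% and 25.6%. The list was not limited by the mean, and Rbfox2, for example, had means of 5.41 and 22.7. A peak in every biological library was found on 44 (69.8%) in Lin- and 38 (60.3%) in CD11b+ cells. Over genes with a mean of 1000 or more it was 25.1% and 37.9%, and over all listed genes 6.89% and 10.2%. In both cell types, 34 genes of the list had such a peak. They included Tra2a, Ptbp1, Ptbp3, Celf2, Mbnl1, Rbm5, Rbm25, Rbm39, Luc7l2, Luc7l3, Son, Srrm1, Srrm2, Ddx5, Ddx17, Ddx39b, Dhx15, Ewsr1, Taf15, Tardbp, Clk1, Clk2, Clk4, Dyrk1a, Pnn, Acin1, Sfpq, Khdrbs1, Sf1, Tia1, Tial1, Pcbp2 and Srrt. Ptbp1, which encodes the pyrimidine tract binding protein, had 12, 10 and 10 peaks in the biological Lin- and 7 and 4 in the biological CD11b+ libraries. Clk1, a kinase of SR proteins, had 5, 4 and 5 against 8 and 8, and Son, which encodes a nuclear speckle protein, 5, 5 and 4 against 16 and 11.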

How the data were processed

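Processed peak files of 10 eCLIP and 10 smInput libraries and 2 gene tables from 12 RNA-seq libraries were used, all from MLL-Af4 cells and grouped by the labels. Per the labels and the study's methods, the authors aligned reads to mm10 (STAR 2.5.3a, Bowtie2) and called peaks per library with CLIPper at a p below 0.05. The authors deposited those peaks with their p-value and, in the peak name, a number taken here as the reads in the peak, which is the CLIPper layout and is not stated in the files. Peaks that overlap smInput peaks were removed by the authors in the filtered files. The headers give other deduplication and calling settings for smInput than for eCLIP. The authors deposited an expression signal per gene, the mean normalized count from DESeq2 over wild type and I3KO libraries together. They also hold the authors' fold changes, standard errors, p-values and peak marks, which were not used.

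Peaks were assigned by their gene ID (11145 of 11286 IDs were in GENCODE M21) and placed by their centre, coding exons before UTRs, then NMD or retained-intron exons, other exons and introns. Tests were exact permutation tests over the biological libraries, adjusted by Benjamini-Hochberg over 16 tests (Python 3.11.15, SciPy 1.17.1, pysam 0.24.0). Placement was tested on simulated data, where 100% of 381 peaks were recovered. Their true classes came from the same annotation, so this checks the code and does not show that real peaks are placed correctly. The members, gene lists and tests were chosen with earlier results of these data known. Named genes were the most regularly bound of each cell type, those bound in every biological library of 1 cell type and no library of the other, the most abundant unbound, the leading gene of each family, and other regulators bound in every biological library. Other genes were named after their values were seen, and 1 regulator is not reported here by name. Alternatives were technical libraries, unfiltered peaks, a CLIPper p below 0.001, other distances, annotation and motif, and leaving out each library. The labels do not say which biological library a technical one repeats, or whether biological libraries came from separate mice, so p-values measure only the spread between libraries. Peak numbers depend on sequencing depth, which is unknown here. Intervals cover counting error only.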

Additional observations from a re-analysis of the deposited data

Results flagged for a closer look

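Among the 4 CD11b+ smInput libraries, replicate 3 had 4.34 peaks on the 66 genes per 1000 peaks, from 6 peaks of 1381. The other inputs of that cell type had 1.80, 1.59 and 1.64, from 3 peaks each. The gap to the nearest of them was past Dixon's 95% limit for 4 samples, which chance passes in about 1 of 20 groups. Replicate 3 is the input of a technical library and entered no test of the biological libraries.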

How the results depend on the processing

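Over 18 results and 194 alternatives, 173 kept their side of the threshold without turning direction, among them the difference between cell types in NMD or retained-intron exons, which was 0 with basic transcripts. Alternatives on biological libraries alone could not pass the threshold, and the counts of bound members had no test. Their side was therefore fixed in advance, and keeping it does not show that a result is firm. With technical libraries counted as replicates, 11 results passed an exact permutation p of 0.05, but these libraries repeat biological ones, so their p-values are too small. Their values were 10.3 for peaks on the 66 genes per 1000 between cell types, 15.5 in Lin- and 7.11 in CD11b+ cells for eCLIP minus smInput, and, for the 66 genes minus other genes, -21.5 points in introns, 25.1 in NMD or retained-intron exons, 33.0045 near splice sites and -12.2 for the hexamers. For Lin- minus CD11b+ they were 16.9 in introns, -7.43 in the 3′UTR, -14.5 in NMD or retained-intron exons and 15.8 near splice sites.

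The direction turned in 10 cases, and the p of each main value was above the threshold. With basic transcripts, the share in introns became 8.06 against other genes and -1.93 between cell types, and the share in NMD or retained-intron exons -0.0425 against other genes, since that annotation holds few such transcripts. With everything outside coding-transcript exons as intron, an alternative chosen after seeing the data, the intron values were 1.89 and -2.35. The coding exon share against other genes was -3.50 with a CLIPper p below 0.001, 12.3 when any overlap counted, 0.0898 without Lin- replicate 1 and 0.149 without Lin- replicate 3, in a leave-one-out range from -1.38. The motif share between cell types was 6.38 for CACA and 0.032 without CD11b+ replicate 2, and -1.95 without CD11b+ replicate 1. Leaving out peaks on small RNA genes, also chosen after seeing the data, turned no direction.

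Counted by genes in place of peaks, eCLIP minus smInput was 6.51 in Lin- cells. Leaving out each replicate in turn gave 7.01 to 10.7 for peaks per 1000 between cell types, 7.33 to 10.3 for members with a peak, 8.32 to 19.05 for introns and 9.19 to 16.9 for splice sites between cell types, 0.395 to 1.95 for the 3′UTR against other genes, 13.6 to 15.9 and 7.33 to 9.40 for eCLIP minus smInput, 25.6 to 34.6 for splice sites against other genes and 18.6 to 24.7 for NMD or retained-intron exons. The members bound numbered 51 to 54 in Lin- and 37 to 40 in CD11b+ cells.

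Each smInput belongs to the eCLIP library of its number. With that pairing as a replicate block the differences were 14.9 and 8.36, which pairing cannot alter. So few pairs allow no p below the threshold, so no call could change. Lin- and CD11b+ libraries share only a number: deviations of same-numbered libraries correlated at 0.00473 and 0.0274 over 10190 genes. With that replicate block the peaks per 1000 differed by 10.3, and again no call could change.

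No main test was able to pass the threshold, since 3 against 2 libraries allow no p below 0.1 and 5 libraries none below 0.0625. A member with no peak was not detectable at this depth, which does not show that it was unbound.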

Other observations

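Several splicing regulators outside the name rule differed in the order of the cell types. Ptbp3, a relative of Ptbp1, had 2, 3 and 1 peaks in the biological Lin- and 6 and 4 in the biological CD11b+ libraries. Luc7l3, a U1-associated factor, had 3, 2 and 3 against 5 and 5. Dyrk1a, a kinase found in nuclear speckles, had 3, 3 and 2 against 6 and 5. For these genes each biological CD11b+ library was above each biological Lin- library, and they were chosen after their values were seen. In the technical libraries Luc7l3 had 2, 2 and 2 peaks in Lin- against 4 and 2 in CD11b+ cells, which tie. Ptbp3 had 0, 0 and 0 against 5 and 3 there, and the 3 equals the count of its Lin- biological library 2. In the other order, Pcbp1, which encodes a binder of C-rich RNA, had 1, 2 and 2 peaks in the biological Lin- libraries and none in CD11b+ cells, at authors' means of 10998 and 5555. Ybx1, which encodes a cold-shock domain protein, had 3, 2 and 2 and none, at means of 22122 and 14369. Elavl1, whose product binds AU-rich elements, had 1, 1 and 2 and none.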
